A study of Drosophila melanogaster with 6 samples.

Results

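Notch signalling in sorted Drosophila myoblasts is described here through 10 genes: the receptor N, its processing factors fng and kuz, the ligands Dl and Ser, the ligand activator neur, the nuclear effectors Su(H), mam and H, and the inhibitor numb. They were picked by symbol and by role among the 17494 genes of the count table, with the measured change of numb already known, so that all values of the 10 genes are given as a description with no test. All 10 passed the filter on low counts, as did 10306 genes in all. The myoblasts lie on the wing imaginal disc, where they form the precursors of the adult flight muscle, and were taken at 0 h after puparium formation (APF) from animals raised at 25 °C. In both groups Mef2-GAL4 drove UAS-GFP::Gma, which labelled the cells for sorting, and 3 libraries were made per group. M1BP RNAi animals also carried UAS-M1BP RNAi #1, directed against M1BP, a promoter-binding transcription factor associated with paused RNA polymerase II, whereas WT animals came from a cross of the same driver to WT. Each library came from cells pooled from 30 to 35 discs. The model is limited by its driver, which is not restricted to muscle precursors but has known activity in nerve and fat tissue, and by the use of a single RNAi line, the weaker of 2 in the study.

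Notch is a surface receptor that is cleaved when Dl or Ser on a neighbouring cell binds it, first by the metalloprotease kuz and then by γ-secretase. The released intracellular part enters the nucleus, where it joins the DNA-binding protein Su(H) and the coactivator mam to switch on target genes such as those of the E(spl) complex. H holds Su(H) in a repressing state, and numb, which is handed to only 1 of 2 daughter cells in asymmetric divisions, antagonises the receptor. In the myoblasts of the wing disc, Notch activity is known for keeping cells undifferentiated, in a state marked by twi, zfh1 and Him.

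The libraries held between 43086545 and 51855156 counts in genes, with 12284 to 13038 genes detected. M1BP, the targeted gene, had 1386, 1703 and 1671 counts in the M1BP RNAi libraries, against 5821, 5288 and 5589 counts in the WT libraries. Its normalised count was 1646 ± 234 in M1BP RNAi and 5402 ± 245 in WT (SD, n = 3), which is -1.71 as a log2 fold change (SE 0.10, with an adjusted p by edgeR's quasi-likelihood test of 1.45e-05). The 6 myoblast markers twi, Mef2, zfh1, Him, htl and stumps were all well detected, and summed to 9677 to 10388 CPM (counts scaled to the library total) in M1BP RNAi and 9739 to 11011 in WT. Markers of other cells that the sort could hold were mixed. Of the 7 haemocyte markers, eater, a phagocytic receptor, was at 0 counts in all 6 libraries, but crq had 1744 to 2003 counts in M1BP RNAi and 1765 to 1852 in WT, and Pxn had 828 to 967 in M1BP RNAi and 999 to 1709 in WT. Of the 8 markers of sensory precursors and neurons, sens and ase had at most 3 counts, but elav had 1156 to 1424 in M1BP RNAi and 1281 to 1566 in WT, and futsch had 1413 to 1550 in M1BP RNAi and 1214 to 1870 in WT. In these bulk samples, fewer cells of a type and less RNA per cell cannot be told apart.

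numb stood apart from the other 9 genes. It encodes an endocytic adaptor that inhibits Notch. Its normalised counts (counts scaled to a common library size) were 6171, 6284 and 5841 in the M1BP RNAi libraries, against 1838, 1687 and 1781 in the WT libraries. Every M1BP RNAi library lay far above every WT library, and the libraries within a genotype were close to each other. The mean was 6098 ± 230 in M1BP RNAi and 1769 ± 75.8 in WT (SD, n = 3), a 3.45-fold difference. The fitted log2 fold change of numb was 1.79 (SE 0.065), the 132nd largest in size among the 10306 tested genes. It lay between 1.75 and 1.81 when any 1 library was left out, so no single library carried it. numb (FBgn0002973) lies on chromosome 2L of the dm6 build, from 9437469 to 9464184 on the plus strand, with 4916 exon bases. Its exons do not overlap those of another gene, and CG33723, which is nested in its span, had at most 12 counts in any library.

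**Figure D1:**
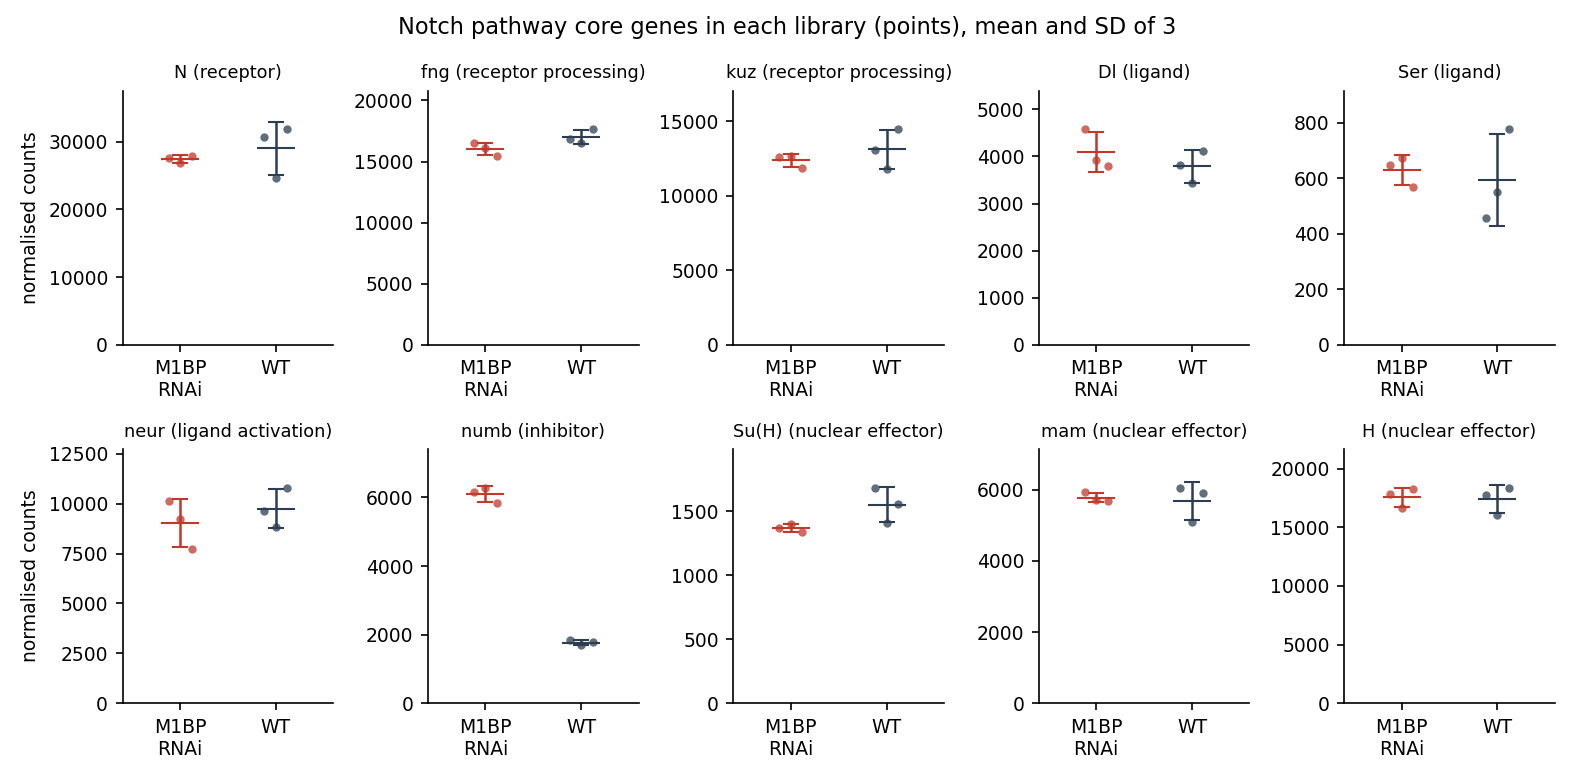
Normalised counts (y axis, from 0, with its own scale in each panel) of the 10 Notch pathway core genes, with M1BP RNAi on the left and WT on the right. Points are libraries 1 to 3 from left to right, and bars are the mean and SD. numb is the panel with a wide gap between the genotypes, with 6098 ± 230 in M1BP RNAi and 1769 ± 75.8 in WT. In the panels of fng and Su(H) the groups are separated by a narrow gap, and in the other 7 panels they overlap.

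The locus of numb was then looked at beyond the gene itself, because of the nature of the RNAi line. UAS-M1BP RNAi #1 belongs to the KK collection. What follows on the collection is from general knowledge, and not from the sources used here. Its constructs were integrated at landing sites on 2L and carry a w marker. The annotated landing site carries y as well and lies in the cytological region of numb, while a further site in some lines lies beside tio. Where the construct sits in these animals was not examined. w, an eye pigment transporter gene, had 122543 ± 1295 normalised counts in M1BP RNAi and 13342 ± 1348 in WT (SD, n = 3), which is 3.20 on the log2 scale (SE 0.078, with edgeR adjusted p 3.21e-08). y, a cuticle pigmentation gene, had 580, 583 and 542 counts in the M1BP RNAi libraries, against 8, 1 and 0 in the WT libraries. Thus both marker genes were high in the same libraries as numb. tio, a zinc finger gene, was lower in M1BP RNAi, at 135 ± 22.9 against 443 ± 88.3 in WT (SD, n = 3, log2 fold change -1.72, SE 0.20, adjusted p by edgeR 0.00126). The part of the construct in the numb counts was not tested.

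Within 50 kb of either end of numb lie 14 other genes, of which 6 had enough counts to be tested. This window was chosen after the value of numb had been seen. With edgeR's quasi-likelihood test at an adjusted p of 0.05, 2 of the 6 passed, both higher in M1BP RNAi, where 4.09% of all tested genes passed in either direction. scat, a gene for a vesicle tethering subunit that ends 2128 bases before numb begins, had 1686 ± 156 normalised counts in M1BP RNAi and 1177 ± 112 in WT (SD, n = 3). The log2 fold change of scat was 0.52 (SE 0.096, with edgeR adjusted p 0.0169). FucTB, a fucosyltransferase gene 6417 bases from numb, had 448 ± 61.9 in M1BP RNAi and 292 ± 21.3 in WT, a log2 fold change of 0.62 (SE 0.14, with edgeR adjusted p 0.0430), and its exons overlap those of CG42847, which had at most 7 counts. Both calls were weak, since the adjusted p reached 0.0994 for scat and 0.190 for FucTB among the alternative settings, all with the same sign. CG3769, which lies between scat and numb, had a log2 fold change of -0.50 and only 42 counts at most. Gdi and CG33298 on the other side of numb had log2 fold changes of 0.090 and -0.028, and Aldh, farther upstream, had 0.23. numb, picked with its change known, had the largest change of the tested genes in this window. Both genes that passed lie upstream of it, whereas the nearest tested gene downstream, Gdi, lies 26992 bases away. The window therefore cannot show whether the smaller increases are limited to the upstream side.

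**Figure D2:**
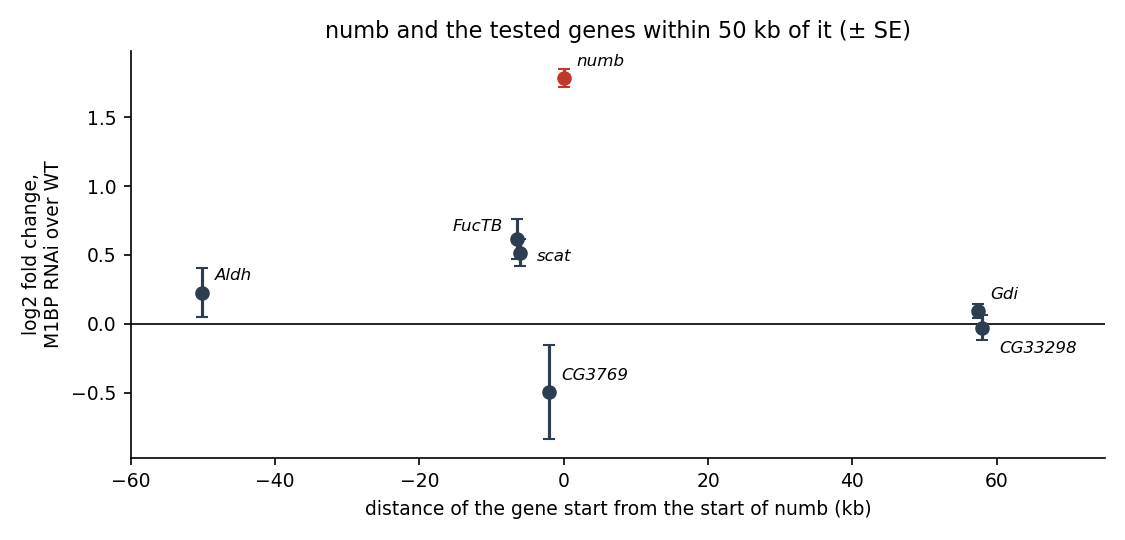
Log2 fold change, M1BP RNAi relative to WT (y axis, points with SE bars) for numb and the 6 tested genes within 50 kb of it, by the distance of each gene's start from the start of numb in kb (x axis). numb, in red, lies at 1.79, FucTB and scat upstream of it lie at 0.62 and 0.52, and the other 4 genes lie between -0.50 and 0.23.

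The 9 other core genes lay close to their WT levels. Their median log2 fold change was -0.082 and the range ran from -0.18 to 0.11, and 4 were above 0 and 5 below. Over all tested genes the median log2 fold change was 0.0070 and the median size of change, regardless of sign, was 0.14, against 0.083 for the 9 genes. A change no larger than the largest of the 9 was seen in 58.7% of the tested genes. Past the study's threshold, an adjusted p of at most 0.001 with at least a 1.5-fold change, were 0.475% of the tested genes and 1 of the 10 members, numb. At an adjusted p of 0.05 alone, 4.09% of the tested genes and the same single member were past the threshold. Because the members were chosen with this contrast known, nothing is read from these counts. For 3 of the 10 genes, numb, fng and Su(H), the ranges of M1BP RNAi and WT did not overlap, which was also the case for 26.1% of the tested genes. Over the 99 alternative fits of the 9 genes, the log2 fold change ranged from -0.25 to 0.32.

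**Figure D3:**
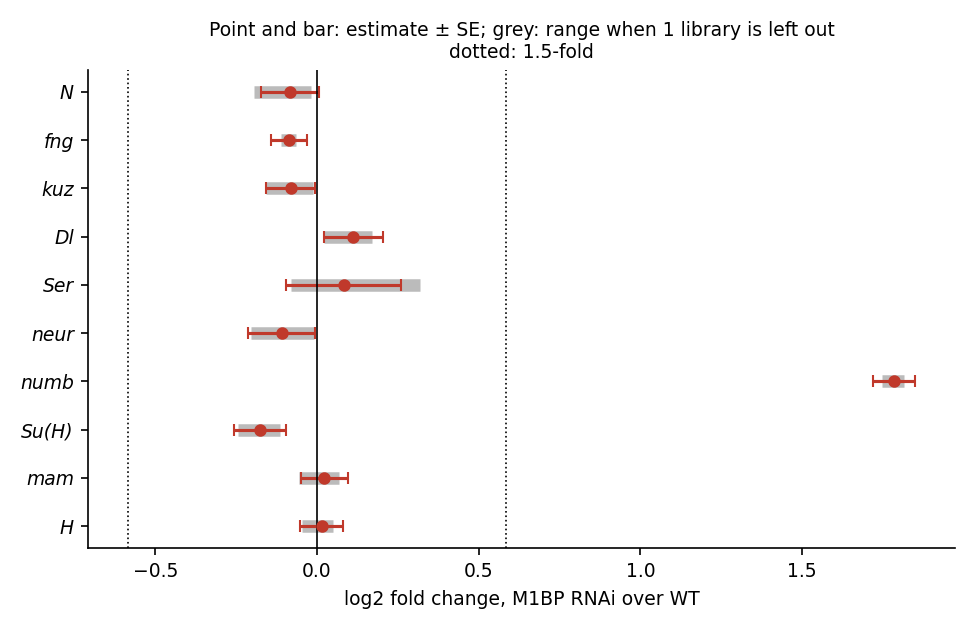
Log2 fold change, M1BP RNAi relative to WT (x axis) of the 10 core genes in order of their role. Points are fitted values with SE bars, grey bands span the values when 1 library is left out, and dotted lines mark a 1.5-fold change. numb lies at 1.79, and the other 9 lie between -0.18 and 0.11, inside the dotted lines.

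The receptor gene N was abundant in both genotypes. N (FBgn0004647, X, 3134870 to 3172221, plus strand) had 27541, 26817 and 27976 normalised counts in M1BP RNAi, against 30702, 24598 and 31862 in WT. The M1BP RNAi libraries lay inside the range of the WT libraries, of which replicate 2 was the lowest of all 6. The mean was 27445 ± 586 in M1BP RNAi and 29054 ± 3903 in WT (SD, n = 3), and the log2 fold change of N was -0.082 (SE 0.089). Its size turned on the WT libraries, from -0.19 without WT replicate 2 to -0.018 without WT replicate 3.

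The genes that process the receptor were close to their WT level. fng encodes a glycosyltransferase that adds N-acetylglucosamine to the fucose of the receptor in the Golgi and thereby shifts its preference from Ser to Dl. fng (FBgn0011591, 3L, 20925891 to 20949512, minus strand) had 16478, 16111 and 15487 normalised counts in M1BP RNAi, against 16868, 16524 and 17642 in WT. All 3 M1BP RNAi libraries lay below all 3 WT libraries, by a gap of less than the spread within either genotype. Its log2 fold change was -0.086 (SE 0.055). Its exons share 22 bases with those of CG10589, which had at most 719 counts. kuz, the ADAM metalloprotease of the first ligand-dependent cut, lies on 2L from 13550139 to 13639411 on the plus strand (FBgn0259984). It had 12576, 12691 and 11879 normalised counts in M1BP RNAi, against 13062, 11786 and 14454 in WT. The groups overlapped, with WT replicate 2 the lowest of the 6 libraries and WT replicate 3 the highest. Its log2 fold change was -0.082 (SE 0.076) and lay between -0.16 and -0.012 when 1 library was left out.

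The ligand genes Dl and Ser were both slightly above WT on average, and both overlapped between the genotypes. Dl (FBgn0000463, 3R, 19302731 to 19326217, minus strand) had 4579, 3924 and 3795 normalised counts in M1BP RNAi, against 3820, 3430 and 4127 in WT. M1BP RNAi replicate 1 was the highest of the 6 libraries, and without it the log2 fold change of 0.11 (SE 0.091) was 0.021. Ser (FBgn0004197, 3R, 27172090 to 27194267, minus strand) had 649, 672 and 568 normalised counts in M1BP RNAi, against 455, 551 and 776 in WT. WT spanned the whole range of M1BP RNAi, with the largest relative spread of the 10 genes, an SD of 27.7% of the mean. The log2 fold change of Ser was 0.083 (SE 0.18), and its sign depended on the WT libraries, from -0.079 without WT replicate 1 to 0.32 without WT replicate 3. Relative to Dl, the length-scaled level of Ser was 14.0% ± 1.39 in M1BP RNAi and 14.1% ± 3.14 in WT (SD, n = 3), so that Dl was the main ligand transcript in both.

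neur encodes a ubiquitin ligase that marks the ligands for endocytosis in the signal-sending cell. neur (FBgn0002932, 3R, 9020348 to 9039471, minus strand) had 10142, 9253 and 7733 normalised counts in M1BP RNAi, against 9619, 8846 and 10799 in WT. The groups overlapped, and M1BP RNAi replicate 3 was the lowest of the 6 libraries. The log2 fold change was -0.11 (SE 0.10), and -0.010 without M1BP RNAi replicate 3. These counts are uncertain, because 1673 of the 4309 exon bases of neur are shared with asRNA:CR31429 and the use of strand in counting is not given in the sources used here. asRNA:CR31429 itself had 5530 ± 824 normalised counts in M1BP RNAi and 5789 ± 590 in WT (SD, n = 3), so reads of the pair cannot be told apart.

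Of the nuclear effectors, Su(H) had the largest difference of the 9 genes. Su(H) (FBgn0004837, 2L, 15039488 to 15043334, plus strand) is the DNA-binding protein through which the receptor acts. It had 1372, 1402 and 1342 normalised counts in M1BP RNAi, against 1683, 1410 and 1556 in WT. The M1BP RNAi libraries were tightly grouped and all lay below WT, but only just below WT replicate 2. The log2 fold change was -0.18 (SE 0.080), from -0.25 without WT replicate 2 to -0.11 without WT replicate 1. mam, the coactivator of the Su(H) complex (FBgn0002643, 2R, 13991203 to 14060356, plus strand), had 5933, 5711 and 5698 normalised counts in M1BP RNAi, against 6057, 5089 and 5917 in WT. These values overlapped, and the log2 fold change of mam, 0.023 (SE 0.073), took either sign when 1 library was left out. H, the antagonist that recruits corepressors to Su(H) (FBgn0001169, 3R, 20621938 to 20628915, plus strand), had 17806, 16682 and 18238 normalised counts in M1BP RNAi, against 17803, 16038 and 18378 in WT. The genotypes were nearly alike in H, with a log2 fold change of 0.014 (SE 0.067) that also took either sign. WT replicate 2 was the lowest WT library for every member but Ser.

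To compare genes with each other, counts were divided by exon length and expressed as CPM per kilobase of exon. On this scale fng was the highest of the 10 genes, at 175 ± 5.47 in M1BP RNAi and 186 ± 6.25 in WT (SD, n = 3). H and N followed, at 62.6 ± 2.86 and 57.8 ± 1.23 in M1BP RNAi, against 62.0 ± 4.34 and 61.2 ± 8.22 in WT. Ser was the lowest, at 2.31 ± 0.20 in M1BP RNAi and 2.18 ± 0.60 in WT. Thus the receptor and its modifier were in the upper part of all tested genes, while Ser was at percentile 28.2 in M1BP RNAi and 27.3 in WT. Levels of numb were 26.8, 27.3 and 25.4 in the M1BP RNAi libraries, against 7.99, 7.34 and 7.75 in the WT libraries. numb thereby took place 6 among the 10 in M1BP RNAi, between kuz and Dl, whereas in WT it took place 9, between Su(H) and Ser. Among all tested genes its level stood at percentile 67.6 in M1BP RNAi and 40.4 in WT.

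The order of the other 9 genes was the same in both genotypes, running fng, H, N, neur, kuz, Dl, mam, Su(H), Ser. In M1BP RNAi the ranges of all 9 neighbouring pairs were separate over the libraries. In WT, 3 pairs overlapped, H with N, N with neur, and Dl with mam, and their order is therefore not settled. The level of numb as a percentage of that of N was 45.9% ± 2.65 in M1BP RNAi and 12.7% ± 1.34 in WT (SD, n = 3). Against Su(H) it was 267% ± 4.71 in M1BP RNAi and 68.7% ± 3.15 in WT. In M1BP RNAi myoblasts the length-scaled level of numb thus exceeded those of Su(H) and of Dl in every library, whereas in WT it was lower in every library. How much of this level is numb transcript and how much comes from the RNAi construct was not tested.

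**Figure D4:**
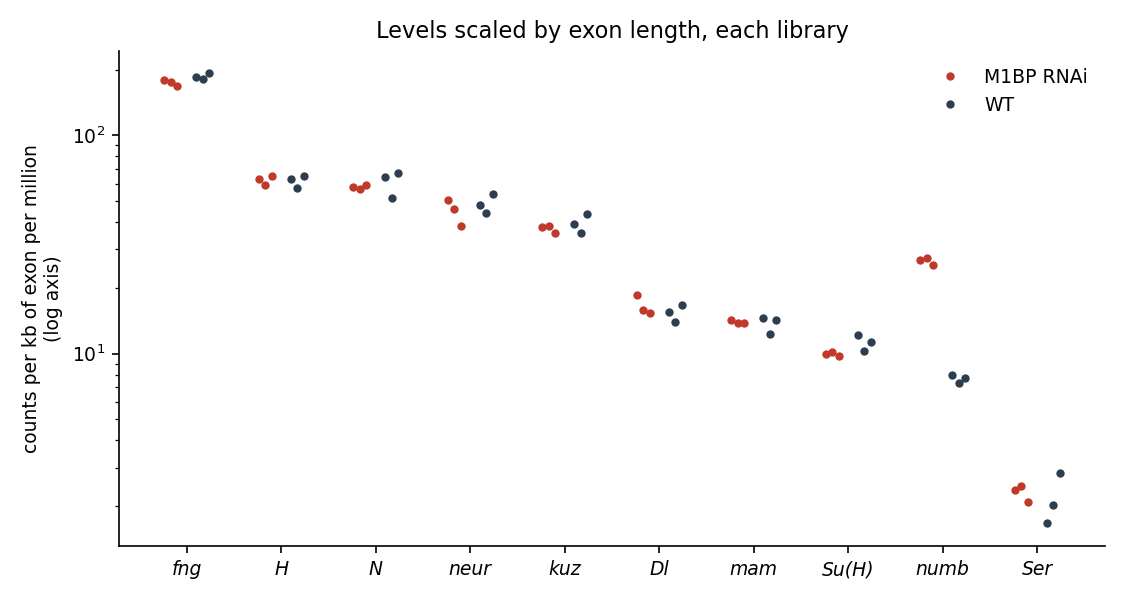
CPM per kilobase of exon (y axis, log scale) of the 10 core genes in each library, ordered by their WT level, with M1BP RNAi in red on the left of each pair and WT in dark blue on the right. fng is the highest, at 175 ± 5.47 in M1BP RNAi and 186 ± 6.25 in WT, and Ser the lowest. numb, at 26.5 ± 1.00 in M1BP RNAi and 7.69 ± 0.33 in WT, is the gene whose place in the order differs.

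In structure the 10 genes were diverse. They lie on X, 2L, 2R, 3L and 3R, with 3 of them on 2L, numb, kuz and Su(H), of which only numb was far from its WT level. Exons make up from 7.95% of the span, in kuz, to 86.0%, in H, and 18.4% in numb. In the annotation numb has 3 transcripts from 2 start positions, which the counts per gene do not separate.

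Other genes of the pathway were examined in 7 lists, without the 10 members, which held 71 genes of which 68 were tested. Past the study's threshold in edgeR's quasi-likelihood test there were 0 of the 68, while 16, or 23.5%, had an unadjusted p under 0.05, against 20.2% of all tested genes. DESeq2 passed 2, dpn and E(spl)m8-HLH. With edgeR at 0.05 in adjusted p, 7 of the 68 passed, or 10.3%, against 4.09% of all tested genes in either direction. All 7 were lower in M1BP RNAi, as were 2.17% of all tested genes at that level. Because the lists were chosen with earlier results of these data known, and 4 of the 7 belong to the E(spl) complex, nothing is read from these shares. These 7 were dpn, E(spl)mgamma-HLH, mib1, E(spl)m6-BFM, E(spl)m8-HLH, E(spl)m2-BFM and Fur1. The count turned on single libraries: it was 1 without WT replicate 1 or without M1BP RNAi replicate 3, 2 without WT replicate 3, 3 without M1BP RNAi replicate 2, 6 without M1BP RNAi replicate 1 and, at the most, 9 without WT replicate 2. dpn was called in each of these. DESeq2 called 10 genes at that level, the 7 and scrib as lower, and Nct and mira as higher.

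The bHLH and Bearded-family genes of the E(spl) complex are known as direct targets of Su(H). Of the 12 genes of the complex, 4 fell in M1BP RNAi at an edgeR adjusted p of 0.05 and 8 did not pass. Over all tested genes, 2.17% were lower at that level. The log2 fold change was below 0 in 9 of the 12, and in 5022 of all 10306 tested genes. The median over the complex was -0.15. The complex encodes bHLH repressors, Bearded-family proteins and Kaz-m1, a protease inhibitor that is not of either family. Of the 1705 exon bases of Kaz-m1, 972 are shared with lncRNA:CR45040. E(spl)mgamma-HLH, a bHLH repressor, had 8969, 4751 and 6247 normalised counts in M1BP RNAi, against 13314, 12319 and 12755 in WT. All 3 M1BP RNAi libraries lay below WT, and they were more spread than those of WT. Its log2 fold change was -0.94 (SE 0.18, with edgeR adjusted p 0.0195). It was -1.22 without M1BP RNAi replicate 1 and -0.75 without M1BP RNAi replicate 2, and the call was lost without WT replicate 1, without WT replicate 3 or without M1BP RNAi replicate 3, with an edgeR adjusted p of at most 0.0913. E(spl)m8-HLH, also a bHLH repressor, had 1842, 1210 and 1313 in M1BP RNAi, against 2782, 2104 and 2218 in WT, with a log2 fold change of -0.70 (SE 0.16, with edgeR adjusted p 0.0385). E(spl)m2-BFM, of the Bearded family, had 11926, 9481 and 10495 in M1BP RNAi, against 15476, 13359 and 13364 in WT, with a log2 fold change of -0.40 (SE 0.091, with edgeR adjusted p 0.0400). In each of these genes M1BP RNAi replicate 1 was the M1BP RNAi library nearest to WT.

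E(spl)m6-BFM was the most abundant of the complex, at 2258 ± 86.2 CPM per kilobase in M1BP RNAi and 2683 ± 63.8 in WT (SD, n = 3). The log2 fold change of E(spl)m6-BFM was -0.25 (SE 0.052, with edgeR adjusted p 0.0279). E(spl)m7-HLH, the most abundant bHLH gene, had a log2 fold change of -0.25 (SE 0.090) and did not pass (edgeR adjusted p 0.161). The 3 genes above 0, E(spl)m5-HLH, E(spl)m4-BFM and Kaz-m1, were the least abundant, at no more than 11.9 CPM per kilobase in either genotype. Summed over the 12 genes, normalised counts were 289674, 256523 and 254302 in M1BP RNAi, against 322647, 303392 and 324894 in WT, a mean in M1BP RNAi of 84.2% of that in WT. The number of E(spl) genes called depended on the libraries as well, from 0 without WT replicate 1 or without M1BP RNAi replicate 3 to 5 without M1BP RNAi replicate 1, and it was 1 without WT replicate 3 or without M1BP RNAi replicate 2.

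**Figure D5:**
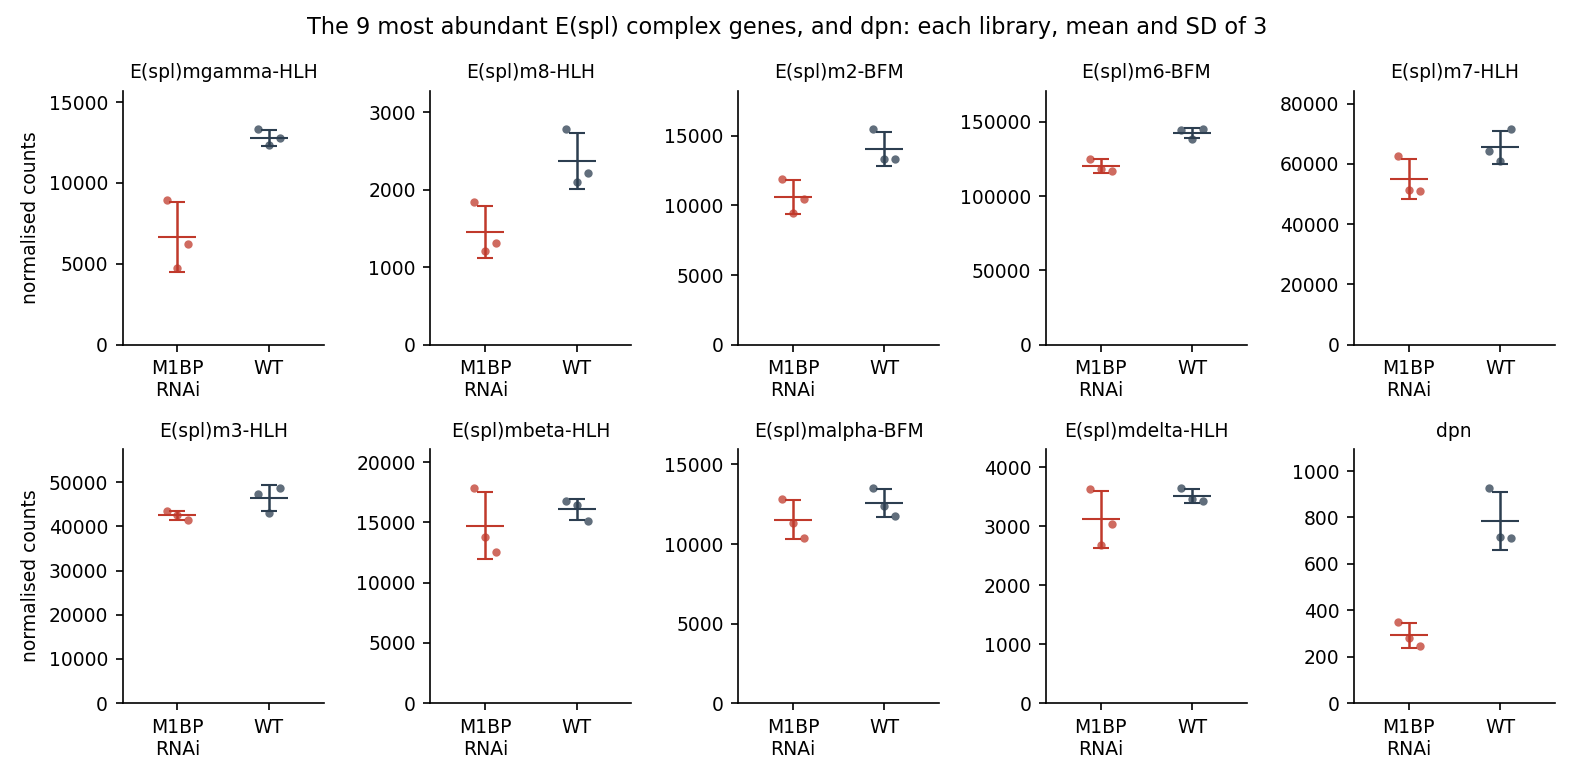
Normalised counts (y axis, from 0, with its own scale in each panel) of the 9 E(spl) complex genes with the most counts, and of dpn, with M1BP RNAi on the left and WT on the right. Points are libraries 1 to 3 from left to right, and bars are the mean and SD. E(spl)mgamma-HLH, E(spl)m8-HLH, E(spl)m2-BFM, E(spl)m6-BFM and dpn have M1BP RNAi libraries below all WT libraries, and in the other 5 panels the groups overlap. The groups did not overlap, in either direction, for 26.1% of all tested genes.

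Among Notch-responsive genes outside the complex, 7 of 8 were tested, and dpn was the 1 that fell. dpn encodes a bHLH repressor best known from neural stem cells. It had 351, 279 and 245 normalised counts in M1BP RNAi, against 928, 714 and 712 in WT, a log2 fold change of -1.43 (SE 0.16, with edgeR adjusted p 0.00116). The reads of dpn are uncertain, as 1207 of its exon bases are shared with asRNA:CR44275, whose log2 fold change was -1.43 (SE 0.19). Beside these falls, the 8 markers of sensory precursors and neurons summed to 57.9 to 66.0 CPM in M1BP RNAi and 58.5 to 68.6 in WT, and the 7 haemocyte markers to 61.6 to 64.5 CPM in M1BP RNAi and 64.0 to 72.3 in WT. The haemocyte GATA factor gene srp had 25, 34 and 18 counts in M1BP RNAi, against 59, 78 and 81 in WT. The groups did not overlap for srp or for Pxn, whose edgeR adjusted p were 0.0641 and 0.130, as for 26.1% of all tested genes. crq, the haemocyte marker with the most counts, went the other way, at 111% of WT, with overlapping groups. The part of these cells in the values of dpn and the E(spl) genes was not tested. The genes tied to the undifferentiated state did not pass in edgeR's test. For twi, the mesodermal bHLH activator, the log2 fold change was -0.031 (SE 0.057, edgeR adjusted p 0.799). For zfh1, a zinc finger and homeodomain repressor, it was -0.053 (SE 0.093, edgeR adjusted p 0.793), and for Him, an inhibitor of Mef2 activity, -0.13 (SE 0.065, edgeR adjusted p 0.295). The sign of twi and of zfh1 depended on which library was left out.

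In the list of receptor maturation and cleavage, 11 genes were tested and 1, Fur1, fell. Fur1, a furin protease gene, had a log2 fold change of -0.35 (SE 0.083, with edgeR adjusted p 0.0479), at 10060 ± 602 normalised counts in M1BP RNAi and 12792 ± 1363 in WT (SD, n = 3). Fur2, its paralogue and the gene with the most counts of the list, had -0.13 (SE 0.067). The γ-secretase genes Nct and Psn had log2 fold changes of 0.18 (SE 0.052) and 0.16 (SE 0.056), which did not pass in edgeR's test at an adjusted p of 0.05, while Nct passed as higher in DESeq2. Of the ligand activation list, with 4 of 6 genes tested, mib1, a ubiquitin ligase that acts on Dl and Ser as neur does, fell at -0.30 (SE 0.060, with edgeR adjusted p 0.0250). Its normalised count was 5670 ± 113 in M1BP RNAi and 6968 ± 395 in WT (SD, n = 3). lqf, the epsin that takes ubiquitylated ligands into the cell, had -0.066 (SE 0.057). The calls of Fur1 and mib1 were each lost when any library but WT replicate 2 was left out.

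Receptor trafficking, Numb segregation with cell polarity, and nuclear cofactors had no gene past 0.05 in adjusted p by edgeR. An unadjusted p under 0.05 was seen in 1 of 9, 3 of 14 and 1 of 11 genes, against 20.2% of all tested genes. All 9 trafficking genes had a log2 fold change below 0, with a median of -0.092. So did 5022 of the 10306 tested genes, and the smallest edgeR adjusted p of the 9 was 0.162. Those with the most counts were AP-2alpha, an adaptor subunit of endocytosis, at -0.11 (SE 0.075), and Cbl, a ubiquitin ligase, at -0.092 (SE 0.056). In the list of Numb segregation and polarity the median was -0.021, with 7 genes above and 7 below 0. brat, a translational repressor segregated in neural stem cells, had -0.059 (SE 0.078). scrib, a junctional scaffold, had -0.30 (SE 0.085, adjusted p 0.0796 in edgeR), and passed in DESeq2, as did mira, an adaptor segregated in neural stem cells, at 0.62 (SE 0.16, adjusted p 0.0654 in edgeR). pon, the partner of Numb in asymmetric segregation, had 0.037 (SE 0.066). In the list of nuclear cofactors the median was 0.030, and the corepressor genes with the most counts, CtBP and Smr, had 0.066 (SE 0.056) and 0.030 (SE 0.089).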

How the data were processed

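RNA was measured in 6 libraries of sorted myoblasts, 3 M1BP RNAi and 3 WT, made from triplicate RNA preparations of low input by amplified full-length cDNA. The deposited counts are whole numbers of reads per gene over exons, made by the authors with featureCounts of Subread 2.0.3 on dm6 after bcl2fastq 2.17.1.14, as the submitters' processing notes list. The aligner and the use of strand are not given in the sources used here. A deposited table of the authors' own comparison holds a mean normalised signal, log2 fold changes with their errors, p-values and adjusted p-values from DESeq2 (version 1.3.0 in the processing notes). Only its gene symbols and IDs were used.

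Counts were analysed with edgeR 4.0.16 in R 4.3.3 (filterByExpr with a minimum count of 10, TMM factors, genotype only, quasi-likelihood test, Benjamini-Hochberg adjustment over 10306 genes). The fit was tested on simulated data. Normalised counts are counts scaled to the mean effective library size. The exon lengths of the deposited table gave CPM (counts scaled to the library total) per kilobase of exon. Libraries held 43086545 to 51855156 counts, at which 3 counts equal 0.0579 to 0.0696 CPM. Reads were amplified without molecular identifiers, so they are not independent molecules. No pair of replicates was within sampling noise, as the chi-square per degree of freedom between replicates was at least 10.7. Gene positions, exon bases and exon overlaps were read from the exon coordinates deposited with the counts. Transcripts and start positions came from the Ensembl annotation of the same build.

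The members and all lists were chosen with earlier results of these data known. The named genes are M1BP, the members, of the wider lists each gene past an adjusted p of 0.05, the 2 with the most counts per list, and twi, zfh1 and Him, and of the markers those that are highest or define a cell type. Nct, Psn, pon, scrib, mira, srp, nub, eyg, grh, crb, Mhc, up, Tm2, bt, wupA, y, tio and the neighbours of numb were added after their values were seen. Symbols of 5 list genes were matched through RefSeq synonyms. Alternatives were RLE size factors, library totals, no filter on low counts, DESeq2 1.42.0, each library left out, a replicate block and other thresholds. A search of promoter motifs was planned and not run.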

Additional observations from a re-analysis of the deposited data

How the results depend on the processing

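For numb, whose log2 fold change is a description with no test, values lay between 1.75 and 1.81 over the 11 alternatives. The median of the 9 other members lay between -0.11 and -0.012 with 1 library left out. The count of all genes past the study's threshold, 49, was 99 with no filter on low counts, 172 with DESeq2, 19 with the replicate block, 422 at an adjusted p of 0.05 alone, and 17 to 31 with 1 library left out. For the wider pathway lists, 0 genes in edgeR's test were 1 with no filter, 2 with DESeq2, 1 with the replicate block and 7 at an adjusted p of 0.05. With 1 library left out, the 7 were 1 to 9, and the 4 of the E(spl) complex were 0 to 5. Such fits have fewer samples. twi had -0.072 to 0.0088 and zfh1 -0.15 to 0.0061 with 1 library left out. The cause of the other moves was not tested.

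The replicate numbers are shared between genotypes. Over all tested genes, deviations of same-numbered libraries correlated at 0.026, -0.017 and -0.21. With 3 libraries per genotype, these values cannot show whether the libraries were paired. The SE of E(spl)m8-HLH was 0.16 in the main fit and 0.073 with the replicate block. For E(spl)mgamma-HLH it was 0.18 and 0.13, and for E(spl)m6-BFM 0.052 and 0.057. With the replicate block, 6 of the 7 pathway genes at an adjusted p of 0.05 remained, without E(spl)m6-BFM, and dpn passed the study's threshold.

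With 3 libraries per genotype and SE values of 0.055 to 0.18 for the 9 members, changes of a few percent were not detectable, nor were larger ones in some genes. Su(H), at 88.5% of WT, had an SE of 0.080 beside its log2 fold change of -0.18. For Ser, with the largest SE, values ran from -0.079 to 0.32 with 1 library left out. The size of change that could be excluded was not worked out. All comparisons rest on 1 RNAi line. The depth limits no core gene, since Ser, the lowest, was still far above the floor of 3 counts in each library.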

Other observations

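Of 8 genes of differentiated muscle, 2 of the 6 tested passed 0.05 in adjusted p by edgeR, in opposite directions, where 4.09% of all tested genes passed. Act57B, a muscle actin gene, had a log2 fold change of 0.39 (SE 0.076, with an adjusted p by edgeR of 0.0203), and Mlc2, the regulatory light chain of muscle myosin, had -1.52 (SE 0.21, with an adjusted p by edgeR of 0.00304). Summed over the list, levels were 837 to 957 CPM in M1BP RNAi and 693 to 778 in WT, with sls and Act57B as the most abundant. Of the others, Mhc, up, Tm2, bt and sls were at 186%, 282%, 227%, 347% and 110% of WT, and wupA at 51.9%. Counts of up, Tm2, bt and wupA were at most 36 in any library, and Tm2 and wupA were not tested. Mhc had 55, 45 and 224 counts in M1BP RNAi, against 69, 43 and 75 in WT. Of these, the groups did not overlap for bt (edgeR adjusted p 0.0637), as for 26.1% of all tested genes.

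Other lists of cell type markers had no gene past that threshold. Markers of wing disc epithelium summed to 567 to 629 CPM in M1BP RNAi and 565 to 612 in WT. These sums were carried by ara, caup and ap, at 105%, 104% and 98.2% of WT. The less abundant nub, eyg, grh and crb were at 61.5%, 56.1%, 60.7% and 79.6% of WT. pnr, an epithelial notum marker, had 2, 9 and 1 counts in M1BP RNAi, against 19, 17 and 11 in WT. Of this list the groups did not overlap for nub and pnr, as for 26.1% of all tested genes. Tracheal markers summed to 15.9 to 24.8 in M1BP RNAi and 21.1 to 45.5 in WT. Their part in the differences of dpn and the E(spl) genes was not tested.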
